A study of Mus musculus with 15 samples.

Results

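The genes described here encode secreted ADAMTS metalloproteinases: Adamts1, Adamts2, Adamts4, Adamts5, Adamts9 and Adamts12. They were read through every probe set that the platform annotation assigned to these symbols alone, 12 of the 45101 probe sets on the array, which covered 5 of the 6 genes among 18194 gene symbols in all. No probe set was listed for Adamts2, which was not analysed here. Of the 12 probe sets, 8 reached a mean signal of 50 in at least 1 group and were tested, and each of these 8 reached it in all 5 groups. The other 4, 1 each for Adamts4, Adamts5, Adamts9 and Adamts12, stayed under 50 in every group.

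Primary chondrocytes from cartilage of CD1 mouse embryos at embryonic day 15.5 were grown in monolayer and exposed for 24 hours to 1 of 5 conditions, with 3 arrays each. The control group received the vehicle DMSO, in which every inhibitor was also dissolved, and all groups had medium with ascorbic acid and β-glycerophosphate. LY294002, a PI3K inhibitor, UO126, which blocks MEK upstream of ERK, and SB202190 were each given at 10 µM. The series description groups SB202190 with MEK/ERK inhibitors, whereas it is usually described as a p38 MAP kinase inhibitor. Trichostatin A (TSA) inhibits histone deacetylases, and its dose is left out because the unit in the labels cannot be read. The cells were a digest of whole embryonic long bone cartilage, so each array averages over chondrocytes of several stages and over any other cells that attached.

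All 11 chondrocyte markers checked, Acan and Sox9 among them, reached a mean signal of 50 in every group. Markers of other cell types reached 50 too. In DMSO all 7 markers of fibroblasts and perichondrium reached 50, as did 4 of 5 for smooth muscle and all 5 for skeletal muscle. Of 6 endothelial markers, 1 reached 50 in DMSO, and of 7 macrophage markers 5 did. On single arrays 40.9% to 45% of all probe sets read 50 or more. Reaching 50 alone therefore does not show that a cell type was present. On the 15 arrays the median signal lay between 29.8 and 39.96. Arrays of the same group correlated with r from 0.967 to 0.981 across probe sets, and TSA arrays correlated with those of other groups with r from 0.836 to 0.866. With 3 arrays in a group, the precision of each value is limited.

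ADAMTS proteases are zinc enzymes made as inactive precursors, cut by furin-like convertases and held in the matrix by their thrombospondin repeats. ADAMTS4 and ADAMTS5 are the main aggrecanases, the enzymes that cut the core protein of aggrecan, the proteoglycan that lets cartilage resist compression. ADAMTS1 and ADAMTS9 cut versican as well as aggrecan, ADAMTS12 can cut cartilage oligomeric matrix protein, and ADAMTS2 removes the amino-terminal propeptide of fibrillar procollagens. TIMP3 is the main tissue inhibitor of the aggrecanases, and the receptor LRP1 takes several of these proteases up from the matrix.

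RefSeq promoter windows were listed for Adamts1, Adamts2, Adamts9 and Adamts12 on build GRCm38.p6, and the 250 bases before the start are shown for the 3 of these that the array measured. Against DMSO, Adamts1 and Adamts12 gave calls with TSA, Adamts9 and Adamts12 with UO126, and Adamts9 also with LY294002 and SB202190. Capitals mark the GC box GGGCGG and the TATA box TATAAA, on either strand, and the windows are read 5′ to 3′ on the gene's strand. They lie at chr16:85803114-85803363 on the minus strand for Adamts1, chr6:92943535-92943784 on the minus strand for Adamts9, and chr15:11064523-11064772 on the plus strand for Adamts12.
Adamts1: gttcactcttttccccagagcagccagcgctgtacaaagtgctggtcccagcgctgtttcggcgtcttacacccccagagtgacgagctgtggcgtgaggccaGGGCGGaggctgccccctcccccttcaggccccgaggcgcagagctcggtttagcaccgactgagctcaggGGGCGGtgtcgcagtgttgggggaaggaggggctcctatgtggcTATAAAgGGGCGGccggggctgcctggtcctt
Adamts9: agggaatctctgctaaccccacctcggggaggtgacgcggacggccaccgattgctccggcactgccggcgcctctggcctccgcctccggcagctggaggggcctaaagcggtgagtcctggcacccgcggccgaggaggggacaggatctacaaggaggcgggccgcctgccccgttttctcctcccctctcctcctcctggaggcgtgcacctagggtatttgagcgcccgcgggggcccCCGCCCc
Adamts12: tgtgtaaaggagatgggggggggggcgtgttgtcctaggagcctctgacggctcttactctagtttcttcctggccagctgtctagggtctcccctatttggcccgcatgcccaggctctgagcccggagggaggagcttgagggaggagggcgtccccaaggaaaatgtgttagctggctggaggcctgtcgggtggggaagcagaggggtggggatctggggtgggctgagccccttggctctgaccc

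Over the full windows of 300 bases, which end 50 bases after the start, the GC box stood in Adamts1, Adamts2 and Adamts9, against 35.7% of all 32851 mouse promoter windows. The TATA box stood only in Adamts1 of the 4, against 13.6% of all windows. The searched letters of a FoxO site (TGTTTAC, in 3.65% of all windows), an AP-1 site (TGANTCA, 7.81%), a cyclic AMP response element (TGACGTCA, 1.79%) and a Runx site (TGTGGT, 16.8%) were in none of the 4 on either strand. The share of G and C bases was 64.7% in Adamts1, 77.3% in Adamts2, 70% in Adamts9 and 62% in Adamts12, with a median of 52.7% over all windows. These matches describe the letters of the windows and no binding was measured.

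Adamts4 signal fell with TSA and passed the threshold with none of the kinase inhibitors. Its tested probe set, 1452595_at, read 211, 196 and 205 on the DMSO arrays and 56.6, 46.9 and 63.3 on the TSA arrays. The TSA arrays therefore lay far below the control arrays, with no overlap, as in 59.1% of all tested probe sets for TSA against DMSO. The fitted level was 3.7-fold lower with TSA (log2 change -1.89 ± 0.18 SE, adjusted p = 4.14e-07, n = 3 in each group), and it passed the threshold in all 24 alternative settings. In these settings the processing was changed or 1 array was left out. The second probe set of Adamts4, 1455965_at, was too dim to be tested and read 50.5, 17.2 and 24.1 with DMSO and 2.94, 3.29 and 2.97 with TSA. Without the filter on low signals its difference also passed (log2 change -3.17 ± 0.37, adjusted p = 8.49e-06), though signals this low leave the size imprecise.

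With LY294002 and UO126 the Adamts4 arrays spread more widely than with DMSO or SB202190. LY294002 gave 120, 186 and 176, UO126 gave 189, 296 and 219, and SB202190 gave 138, 156 and 142. All SB202190 arrays and all LY294002 arrays were below the lowest DMSO array, whereas the UO126 arrays overlapped with DMSO. Neither difference passed the threshold, with a log2 change of -0.37 for LY294002 (95% interval -0.76 to 0.02, adjusted p = 0.227) and -0.49 for SB202190 (-0.88 to -0.10, adjusted p = 0.183). Arrays of the 2 groups did not overlap in 26.2% of all tested probe sets for LY294002 against DMSO and in 20.9% for SB202190. The order of the mean log2 signals was UO126, DMSO, LY294002, SB202190 and TSA, and of the 4 neighbouring pairs only SB202190 and TSA differed, by 2.63-fold (adjusted p = 1.1e-05).

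Adamts5 was higher with LY294002 and lower with TSA at its brightest probe set. The study picked this gene for follow-up from these samples together with growth plate arrays and gene sets. Its direction with LY294002 on these arrays is therefore not independent evidence. The study also reported a rise of Adamts5 with LY294002 by real-time RT-PCR. Probe set 1456404_at read 501, 440 and 422 with DMSO, and 664, 724 and 729 with LY294002. Every LY294002 array stood above every DMSO array, and the fitted level was 1.56-fold higher (log2 change 0.64 ± 0.11, adjusted p = 0.00365). The adjusted p ranged from 0.00223 to 0.0218 over the 24 alternatives. Against the DMSO array of the same number, the LY294002 array was 1.32-fold, 1.65-fold and 1.73-fold higher.

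UO126 arrays of the same Adamts5 probe set read 661, 565 and 598, also all above DMSO. The groups did not overlap in 17% of all tested probe sets for UO126 against DMSO. The Adamts5 log2 change of 0.42 (95% interval 0.18 to 0.66) did not pass the threshold (adjusted p = 0.0582). It passed in 3 of the 24 alternatives, with quantile normalization and without TSA replicate 1 or 3, and the adjusted p ranged from 0.033 to 0.204. SB202190 arrays read 566, 524 and 482 and overlapped with DMSO (log2 change 0.21, interval -0.03 to 0.44, adjusted p = 0.388). The 3 kinase inhibitor groups thus had mean log2 signals above DMSO in the order LY294002, UO126, SB202190, and no neighbours in this order differed past the threshold.

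TSA arrays read 151, 182 and 203 for 1456404_at, less than every array of the other 4 groups. The level was 2.56-fold lower than in DMSO (log2 change -1.36 ± 0.11, adjusted p = 7.69e-08). The other tested probe sets of Adamts5 fell by 1.11 and by 1.35 on the log2 scale with TSA (1422561_at, adjusted p = 2.39e-06, and 1450658_at, adjusted p = 0.000124). All 3 probe sets of this aggrecanase therefore gave the same direction with TSA.

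The 3 Adamts5 probe sets did not give the same answer with the kinase inhibitors. Probe set 1422561_at read 364, 289 and 287 with DMSO and 400, 431 and 415 with LY294002, which did not overlap, but its log2 change of 0.42 ± 0.13 missed the threshold (adjusted p = 0.0557). When replicate number entered as a block it passed (adjusted p = 0.0202), and LY294002 and DMSO are a pair of groups whose arrays of the same number deviated together. Probe set 1450658_at read 233, 183 and 149 with DMSO and 237, 252 and 167 with LY294002, which overlapped (log2 change 0.22, interval -0.27 to 0.70, adjusted p = 0.608). With UO126 this probe set had a log2 change of -0.21, opposite in sign to the other 2, and neither passed. The untested Adamts5 probe set, 1456969_at, lay between 0.671 and 8.95 on all 15 arrays.

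**Figure D1:**
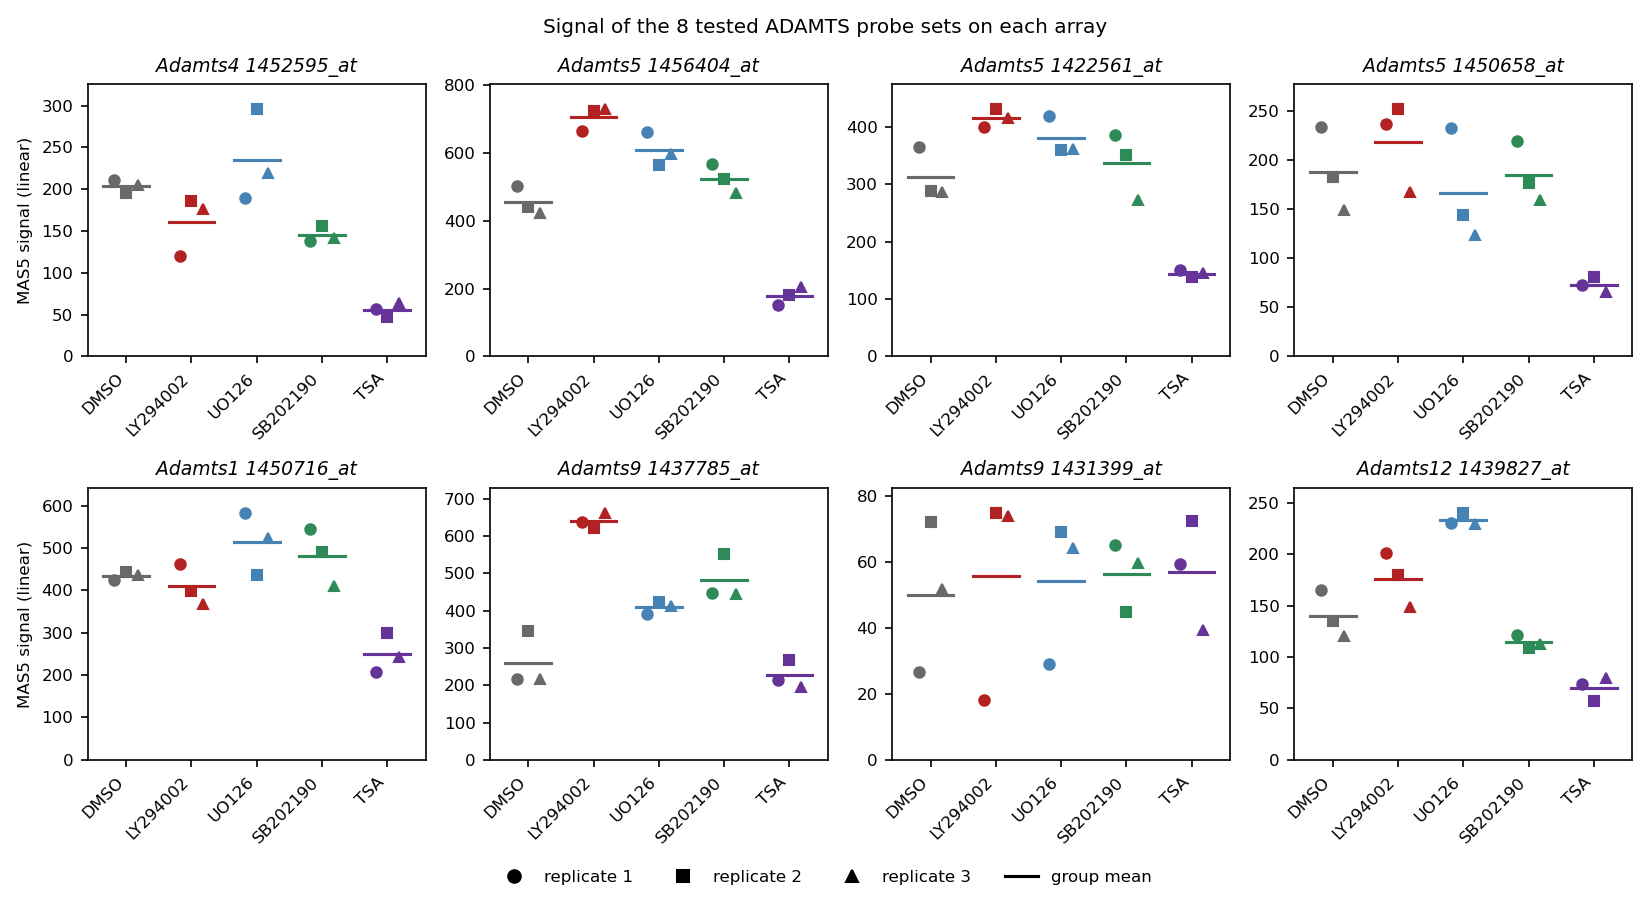
MAS5 signal (vertical axes, linear, from 0) of the 8 tested probe sets on each of the 15 arrays, by group, with circles, squares and triangles for replicates 1, 2 and 3 and lines for group means. The TSA arrays lie below all others in every panel except those of Adamts9, whose brighter probe set reads 621 to 663 with LY294002 and 216 to 345 with DMSO.

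Adamts1 passed the threshold with none of the kinase inhibitors and fell with TSA. Its single probe set, 1450716_at, read 425, 443 and 436 with DMSO. It read 462, 399 and 367 with LY294002, 583, 437 and 523 with UO126, and 544, 490 and 411 with SB202190. Each of these groups overlapped with DMSO. The log2 changes were -0.09 for LY294002 (95% interval -0.40 to 0.21, adjusted p = 0.745), 0.23 for UO126 (-0.07 to 0.54, adjusted p = 0.519) and 0.14 for SB202190 (-0.17 to 0.44, adjusted p = 0.707). The sign with LY294002 turned to 0.034 when each array was centred on its median.

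TSA arrays read 207, 299 and 242 for Adamts1, with the highest below the lowest array of any other group. The level was 1.76-fold lower than in DMSO (log2 change -0.82 ± 0.14, adjusted p = 0.000171), and it passed in all 24 alternatives, with a log2 change between -0.96 and -0.69. The order of the levels was UO126, SB202190, DMSO, LY294002 and TSA, and only the last step passed the threshold (log2 difference 0.72, adjusted p = 0.000512).

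Adamts9 rose with all 3 kinase inhibitors and gave no call with TSA. Its brighter probe set, 1437785_at, read 217, 345 and 216 with DMSO, where the array of replicate 2 stood apart from the others. With LY294002 it read 638, 621 and 663. The lowest LY294002 array was well above the highest DMSO array, and the fitted level was 2.53-fold higher (log2 change 1.34 ± 0.16, adjusted p = 0.000306). Against the DMSO array of the same number, the LY294002 arrays were 2.95-fold, 1.8-fold and 3.06-fold higher. Left out in turn, single arrays moved the adjusted p between 4.16e-05 and 0.00225.

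SB202190 arrays read 448, 552 and 445 for Adamts9, all above DMSO. The level was 1.89-fold higher (log2 change 0.92 ± 0.16, adjusted p = 0.00613), and the call held in 23 of 24 alternatives (adjusted p from 0.000403 to 0.0648). It ended in a fit of SB202190 and DMSO arrays alone. UO126 arrays read 392, 424 and 412, again all above DMSO and 1.62-fold higher (log2 change 0.69 ± 0.16, adjusted p = 0.0294). Arrays did not overlap in 17% of all tested probe sets for UO126 against DMSO and in 20.9% for SB202190. The UO126 call held in 16 of 24 alternatives and ended without DMSO replicate 1, without DMSO replicate 3 or without any 1 of the 3 UO126 arrays, and with no filter, no variance trend or the compared groups alone (adjusted p from 0.00177 to 0.124 over all alternatives). Arrays of the same number deviated together in UO126 and DMSO too, and under that block its adjusted p was 0.00468.

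TSA arrays of 1437785_at read 215, 268 and 196, inside or just under the DMSO range (log2 change -0.17, 95% interval -0.51 to 0.17, adjusted p = 0.38). Without DMSO replicate 2 the sign turned, to a log2 change of 0.053. Replicate 2 was the highest array of its group for this probe set in DMSO, UO126, SB202190 and TSA, and the lowest with LY294002. The order of the levels was LY294002, SB202190, UO126, DMSO and TSA, and of the neighbouring pairs only UO126 and DMSO differed past the threshold.

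The dimmer probe sets of Adamts9 carried little information. Probe set 1431399_at had group means from 50.02 ± 22.7 (DMSO) to 57 ± 16.6 (TSA; SD, n = 3), close to the filter, and all its groups overlapped. Its log2 change with LY294002 was 0.0067 with a 95% interval of -1.07 to 1.08, while the estimate of the brighter probe set, 1.34, lies above it. Probe set 1430352_at was untested and read 15.8, 18.7 and 23 with DMSO and 37.8, 33.7 and 32.6 with LY294002, which did not overlap. Without the filter its log2 change was 0.87 ± 0.26 (adjusted p = 0.107), so it pointed the same way as 1437785_at without passing.

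Adamts12, the protease that can cut cartilage oligomeric matrix protein, rose with UO126 and fell with TSA. Probe set 1439827_at read 165, 135 and 121 with DMSO and 230, 240 and 229 with UO126. The UO126 arrays were tightly grouped and all above DMSO, with no overlap, as in 17% of all tested probe sets. The Adamts12 level was 1.68-fold higher (log2 change 0.75 ± 0.15, adjusted p = 0.0139). The call held in 20 of 24 alternatives and ended without DMSO replicate 2, DMSO replicate 3 or UO126 replicate 2, and when the arrays were brought to equal median log2 signals, or median centring (adjusted p from 0.0064 to 0.0697). LY294002 arrays read 201, 179 and 148 and overlapped with DMSO (log2 change 0.33, interval 0.01 to 0.66, adjusted p = 0.198). SB202190 arrays read 121, 109 and 113, with only the highest of them reaching the lowest DMSO array (log2 change -0.28, interval -0.61 to 0.04, adjusted p = 0.385).

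TSA arrays read 73.7, 56.8 and 79.3 for Adamts12, below every other array. The level was 2.01-fold lower than in DMSO (log2 change -1.005 ± 0.15, adjusted p = 4.51e-05) and passed in all 24 alternatives. The order of the levels was UO126, LY294002, DMSO, SB202190 and TSA, and of the neighbouring pairs only SB202190 and TSA differed past the threshold (log2 difference 0.72, adjusted p = 0.000962). The second probe set of the gene, 1446666_at, read between 0.18 and 8.07 on all 15 arrays and was not tested.

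Counted over the 8 tested probe sets, 2 were higher and 0 lower with LY294002 (Adamts9 and Adamts5), where 7.78% of all 21765 tested probe sets passed, 4.45% as higher and 3.33% as lower. With UO126 2 were higher and 0 lower (Adamts9 and Adamts12), against 2.68% of all probe sets, 1.36% higher and 1.32% lower. With SB202190 1 was higher and 0 lower (Adamts9), against 2.84%, 1.53% higher and 1.31% lower. With TSA 0 were higher and 6 lower, where 54.7% of all tested probe sets passed, 28.1% as higher and 26.6% as lower. At an unadjusted p under 0.05 the counts in limma's test were 4, 4, 2 and 6, against 24.1%, 13.9%, 16.2% and 59.4% of all tested probe sets. The arrays of inhibitor and DMSO did not overlap for 4, 3, 2 and 6 of the 8, against 26.2%, 17%, 20.9% and 59.1% of all tested probe sets. The median log2 change of the 8 was 0.27 for LY294002, 0.26 for UO126, 0.12 for SB202190 and -1.06 for TSA, while over all tested probe sets it was -0.0040, -0.0019, 0.012 and -0.013. The 8 are not independent, since 5 of them belong to Adamts5 or Adamts9, and all 4 comparisons share the same DMSO arrays.

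**Figure D2:**
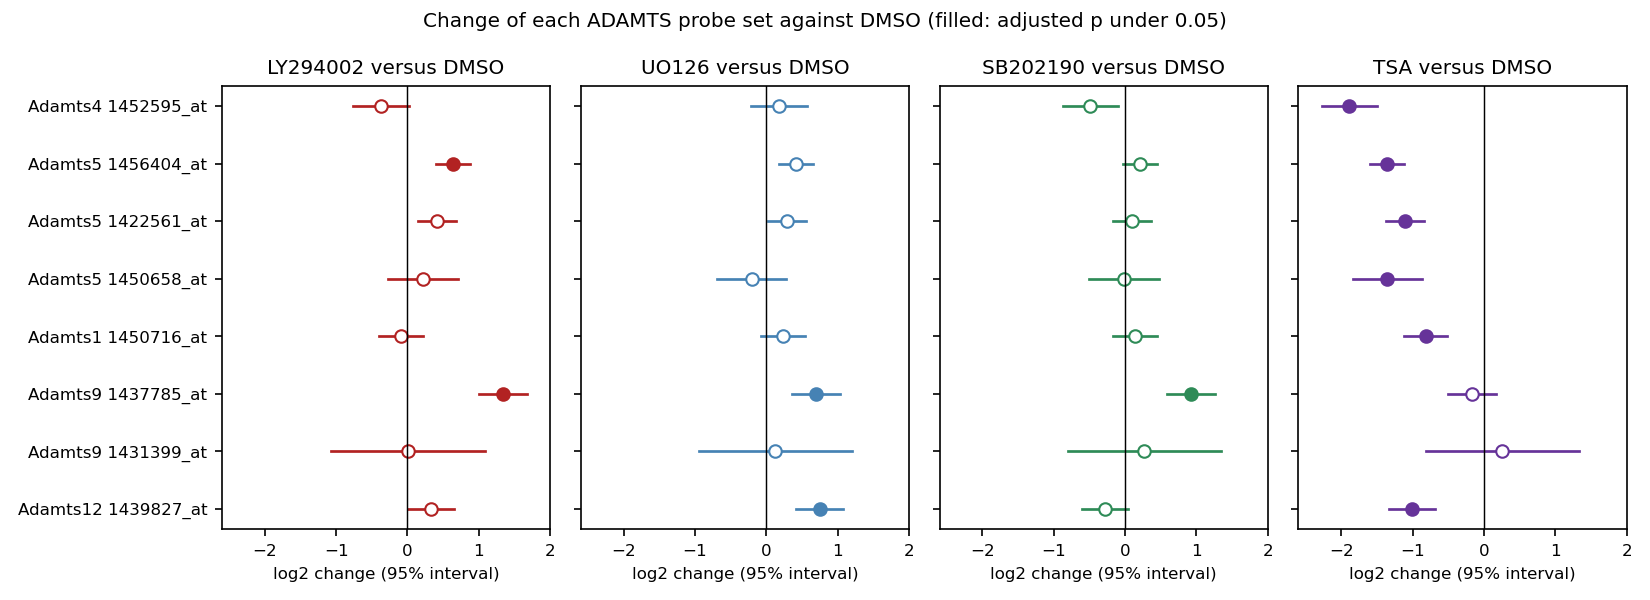
Log2 change against DMSO (horizontal axes) of the 8 tested probe sets for each inhibitor, with bars for the 95% interval and filled points for an adjusted p under 0.05. Adamts9 1437785_at is filled for all 3 kinase inhibitors, at 1.34 (LY294002), 0.69 (UO126) and 0.92 (SB202190), and for TSA 6 probe sets are filled, all below 0.

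By the ratio of mean signals alone, at the 1.4-fold limit that the study used, the same members stood out with LY294002 (Adamts9 and Adamts5) and UO126 (Adamts9 and Adamts12), against 10.8% (4.7% as higher) and 6.76% (2.92% as higher) of all probe sets considered. With SB202190 Adamts9 was higher and Adamts4 lower, against 7.28% of all, 3.34% higher and 3.94% lower, and Adamts4 passed this limit without passing the test. With TSA the same 6 probe sets were lower, against 47.1% of all and 23.1% as lower. For SB202190 the count fell from 2 to 1 without DMSO replicate 1, DMSO replicate 3, SB202190 replicate 1 or SB202190 replicate 3.

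The TSA values stand beside a broad change of the culture. Over all tested probe sets 28.1% were higher and 26.6% lower with TSA. Of the 11 chondrocyte markers, 10 were lower with TSA and 0 higher, and their summed signal ranged from 24108 to 38153 on DMSO arrays and from 12423 to 14553 on TSA arrays. Of the 7 markers of fibroblasts and perichondrium 3 were lower and 2 higher, with sums of 9454 to 12896 in DMSO and 8074 to 9651 with TSA. Of the 7 macrophage markers 4 were lower and 1 higher, with sums of 632 to 747 and 522 to 614. The smooth muscle list had 3 of 5 lower, with sums of 4638 to 5948 in DMSO and 2979 to 3492 with TSA, and the skeletal muscle list had 4 of 5 lower, with 496 to 968 and 150 to 207. The macrophage markers Ptprc and C1qa and the smooth muscle marker Myh11 stayed under 50 in every group and were not tested. Of the 6 endothelial markers only Kdr reached 50 in any group and was tested, and it passed neither way. The part of these marker changes in the fall of the ADAMTS signals was not tested. Fewer cells of a type and less RNA per cell cannot be told apart in such bulk samples. With UO126 2 of the 5 smooth muscle markers were higher, with sums of 7191 to 8277, where 1.36% of all tested probe sets were higher. The part of these markers in the rise of Adamts9 and Adamts12 was not tested either. With LY294002 1 of the 7 fibroblast and perichondrium markers was lower, Dpt (89.4 to 43.5), with sums of 10346 to 12391 over the list. With SB202190 1 of the 5 smooth muscle markers was lower, Cnn1 (65.0 to 15.8), with sums of 4690 to 5073. Of all tested probe sets 3.33% were lower with LY294002 and 1.31% with SB202190. The part of either marker in the Adamts9 and Adamts5 changes with these inhibitors was not tested.

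The inhibitors were also compared with each other. Over the 6 comparisons and 8 probe sets there were 26 calls, and in every one the first named group was the higher. Each kinase inhibitor exceeded TSA in 7 of the 8 probe sets and all 5 genes, against 53.4% of all tested probe sets for LY294002 (26.3% as higher than TSA), 55.1% for UO126 (26.6%) and 52.5% for SB202190 (26.1%). In these 3 comparisons the arrays of the 2 groups did not overlap for the same 7 of 8, against 60.3%, 61.4% and 61.3% of all. Adamts9 was among them, 2.85-fold higher with LY294002 than with TSA (adjusted p = 1.11e-06), 1.82-fold with UO126 (adjusted p = 0.000264) and 2.13-fold with SB202190 (adjusted p = 3.31e-05). The widest gap for the aggrecanases was that of Adamts4 between UO126 and TSA, at 4.18-fold (adjusted p = 1.5e-07), and for Adamts5 that between LY294002 and TSA, at 3.98-fold (adjusted p = 1.17e-09).

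Among the 3 kinase inhibitors the difference with the smallest adjusted p was in Adamts12. It was 2.05-fold higher with UO126 (229 to 240) than with SB202190 (109 to 121), with a log2 difference of 1.03 ± 0.15 (adjusted p = 0.000536). The groups did not overlap, as in 27% of all tested probe sets, and the call held in all 24 alternatives. Adamts12 was also 1.53-fold higher with LY294002 than with SB202190 (adjusted p = 0.0255), a call that ended with median centring and without LY294002 replicate 1 or 2 or any SB202190 array (adjusted p from 0.0129 to 0.111). Between UO126 and LY294002 the log2 difference of 0.42 in favour of UO126 (95% interval 0.09 to 0.74) did not pass (adjusted p = 0.119). In UO126 against SB202190 2 of 8 probe sets passed, where 8.19% of all did (4.11% higher with UO126), and in LY294002 against SB202190 2 of 8, where 6.09% did (3.07% higher with LY294002). Arrays did not overlap for 4 of 8 in the latter, against 26.7% of all.

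Adamts9 was 1.57-fold higher with LY294002 than with UO126 (log2 difference 0.65 ± 0.16, adjusted p = 0.0239), the 1 call of 8 in that comparison, where 6.61% of all probe sets passed (3.59% higher with LY294002). It ended without any 1 of the 6 arrays of the 2 groups (adjusted p from 0.00465 to 0.0692 over the alternatives). The groups read 621 to 663 and 392 to 424 and did not overlap. Arrays did not overlap for 4 of the 8 probe sets in that comparison, against 26.2% of all tested probe sets. LY294002 exceeded SB202190 by 0.42 in log2 (interval 0.08 to 0.76), which did not pass (adjusted p = 0.15) but passed in 3 of 24 alternatives, among them without DMSO replicate 2 (adjusted p from 0.0443 to 0.343). UO126 and SB202190 did not differ past the threshold for this gene (log2 difference -0.23, interval -0.57 to 0.11, adjusted p = 0.465).

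For the aggrecanases 2 further differences between kinase inhibitors passed. Adamts4 was 1.59-fold higher with UO126 than with SB202190 (log2 difference 0.67 ± 0.18, adjusted p = 0.0331), a call that ended with no filter and without UO126 replicate 2 or 3 or any SB202190 array (adjusted p from 0.0153 to 0.148). Its difference between LY294002 and UO126 was -0.55 in log2 (interval -0.93 to -0.16, adjusted p = 0.0851). Adamts5 was 1.35-fold higher with LY294002 than with SB202190 (log2 difference 0.43 ± 0.11, adjusted p = 0.0313), which held in 17 of 24 alternatives (adjusted p from 0.0167 to 0.122). It ended without LY294002 replicate 2 or 3 or SB202190 replicate 2 or 3, and with median centring, no filter or no variance trend. The other 2 Adamts5 probe sets did not pass there (adjusted p = 0.169 and 0.639). Adamts1 differed between none of the kinase inhibitors, with log2 differences of -0.33 for LY294002 minus UO126 (interval -0.63 to -0.02, adjusted p = 0.197), -0.23 for LY294002 minus SB202190 (-0.54 to 0.07) and 0.09 for UO126 minus SB202190 (-0.21 to 0.40).

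**Figure D3:**
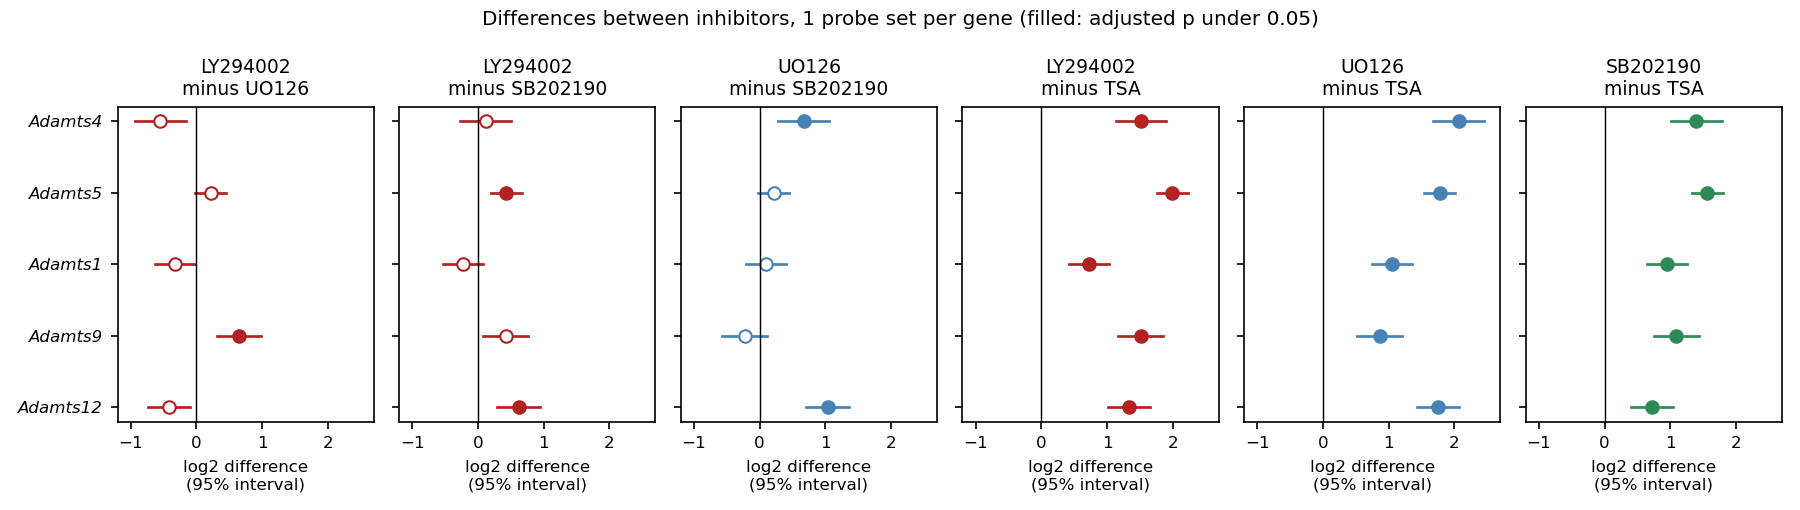
Log2 difference between inhibitors (horizontal axes, first named minus second) for the brightest probe set of each gene, with bars for the 95% interval and filled points for an adjusted p under 0.05. All 5 genes are filled in the 3 comparisons with TSA, and among the kinase inhibitors the difference farthest from 0 is that of Adamts12, 1.03 between UO126 and SB202190.

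The rest of the protease family was mostly dim. Of 13 further ADAMTS genes, 10 had a probe set and 3 passed the filter. Adamts3, a procollagen N-proteinase, rose with UO126, to 126 ± 9.69 against 74.7 ± 7.09 in DMSO (SD, n = 3, log2 change 0.76 ± 0.18, adjusted p = 0.0307), and fell by 0.63 on the log2 scale with TSA (adjusted p = 0.00639). The UO126 call held in 16 of 24 alternatives and ended without DMSO replicate 1 or 2 or any UO126 array, and with median centring, no filter or the compared groups alone (adjusted p from 0.00211 to 0.117). Adamts10, which binds fibrillin, fell by 0.62 with TSA (adjusted p = 0.00424). Adamts15, another aggrecan- and versican-cleaving member, was higher with TSA, at 65.9 ± 7.06 against 44.8 ± 8.27 (log2 change 0.57 ± 0.19, adjusted p = 0.0218), a call that ended without DMSO replicate 3 or TSA replicate 2 and with the compared groups alone (adjusted p from 0.00314 to 0.104). Adamts7, which can cut cartilage oligomeric matrix protein, had group means from 17.6 to 37.1 and was not tested.

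ADAMTS-like proteins share the ancillary domains of the family and lack the catalytic one. Of 7, 5 were tested. Over all genes 30.6% rose and 28.4% fell with TSA, 5.63% and 3.84% with LY294002, and 2.01% and 1.51% with SB202190. With TSA Adamtsl4 rose (adjusted p = 0.024, no longer without DMSO replicate 1 or 2 or TSA replicate 2, with median centring or with the compared groups alone, 0.0112 to 0.103 over the alternatives) and 2 fell, Adamtsl3 by 2.30 (adjusted p = 3.4e-07) and Adamtsl1 by 0.78 (adjusted p = 0.00311). Adamtsl5 fell by 0.89 with LY294002 (adjusted p = 0.0114, and no longer without DMSO replicate 2 or with the compared groups alone, 0.00762 to 0.0605 over the alternatives). Thsd4 rose by 1.73 in log2 with SB202190, from 24.2 ± 13 to 72.6 ± 19.5 (adjusted p = 0.0214). The DMSO mean lay under the filter of 50, which only the SB202190 mean reached, so Thsd4 was tested through that group alone. With signals under 50 set to 50 the Thsd4 log2 change was 0.50 and did not pass (adjusted p = 0.0731). The call also ended without DMSO replicate 2, SB202190 replicate 1 or SB202190 replicate 2 and with the compared groups alone (adjusted p from 0.00778 to 0.116).

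The substrates of these proteases moved most with TSA. Of 14 substrates and partners, all tested, 9 fell and 2 rose with TSA, with a median log2 change of -0.75 against 0.0013 over all 11751 genes, of which 28.4% fell and 30.6% rose. Acan, the aggrecan core protein, fell 4.79-fold to 519 ± 99.1 (log2 change -2.26 ± 0.21, adjusted p = 2.34e-07), and Vcan, the versican core protein, fell 2.16-fold to 273 ± 57.6 (-1.11 ± 0.13, adjusted p = 2.18e-06). Hapln1, the link protein that ties aggrecan to hyaluronan, fell 5.88-fold, and Matn3, matrilin-3, 14.5-fold. Acan, Matn3, Hapln1 and Comp are also among the chondrocyte markers counted above. The substrates and partners that rose with TSA were Hapln4, a link protein, and Nid1, the basement membrane protein nidogen-1. Hapln4 read 71.4 with TSA and 35.5 in DMSO. Only its TSA mean reached the filter of 50, so it was tested through that group alone. With LY294002 none of the 14 passed limma's test after adjustment, and 4 of them had an unadjusted p under 0.05 (Comp, Fbln1 and Nid2 on the higher side, Ncan on the lower), where 26.7% of all genes did. With UO126 2 were higher, Nid2 (nidogen-2) and Fmod, the collagen-binding proteoglycan fibromodulin, which was 2.28-fold higher (adjusted p = 0.000566). Fmod was also the 1 that was lower with SB202190, by 0.63 in log2 (adjusted p = 0.0439), which held in 10 of 24 alternatives and ended without any 1 of 10 arrays, the 3 of SB202190 among them (adjusted p from 0.00277 to 0.197). Over all genes 5.63% rose and 3.84% fell with LY294002, 1.88% and 1.57% with UO126, and 2.01% and 1.51% with SB202190.

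The fibrillar procollagens and their processing enzymes gave 0 calls with each kinase inhibitor and 9 falls of 12 tested with TSA, with a median of -0.61. Over all genes 28.4% fell with TSA. With the kinase inhibitors 5.63% rose and 3.84% fell (LY294002), 1.88% and 1.57% (UO126), and 2.01% and 1.51% (SB202190). Pcolce, which enhances removal of the carboxy-terminal propeptide, fell 2.94-fold (adjusted p = 9.14e-09), Col11a2 3.16-fold and Col3a1 1.92-fold. Col2a1, Col1a1 and Col1a2 did not pass in any comparison with DMSO.

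Of the inhibitors, 5 of 6 genes were tested. With TSA 1 rose and 2 fell, where 30.6% of all genes rose and 28.4% fell. Timp3 rose with TSA, to 4101 ± 484 against 2434 ± 551 in DMSO (log2 change 0.77 ± 0.15, adjusted p = 0.000513), while Timp2 fell by 0.50 (adjusted p = 0.00134) and A2m, the protease trap alpha-2-macroglobulin, by 1.34 (adjusted p = 3.08e-06). With LY294002 2 rose and 0 fell, where 5.63% of all genes rose and 3.84% fell. Reck, a membrane-anchored inhibitor of metalloproteinases, rose 1.84-fold with LY294002 (adjusted p = 5.8e-05) and 1.36-fold with SB202190 (adjusted p = 0.0105). The Reck call with SB202190 ended without SB202190 replicate 2, with median centring and with the compared groups alone (adjusted p from 0.00592 to 0.0724). A2m rose by 0.55 with LY294002 (adjusted p = 0.0432), which held in 11 of 24 alternatives and ended without any 1 of 11 arrays, the 6 of LY294002 and DMSO among them.

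Of 9 genes for activation and clearance, 2 rose with LY294002, 1 with UO126 and 0 with SB202190, and with TSA 4 fell (Furin, Pcsk5, Pcsk6 and Lrp1) and 1 rose (Mmp17). Over all genes 5.63% rose with LY294002, 1.88% with UO126 and 2.01% with SB202190, and with TSA 28.4% fell and 30.6% rose. Pcsk6, a furin-like convertase, rose 1.79-fold with LY294002 (adjusted p = 0.0138) and 2.34-fold with UO126 (adjusted p = 0.00163) and fell 2.13-fold with TSA (adjusted p = 0.000134). Its LY294002 call ended without DMSO replicate 2 or LY294002 replicate 2 or 3 (adjusted p from 0.00102 to 0.0554). Furin fell 1.95-fold with TSA (adjusted p = 1.61e-06). Lrp1, the clearance receptor, rose 1.73-fold with LY294002 (adjusted p = 0.00476) and fell 1.45-fold with TSA (adjusted p = 0.00524). Mmp17, a membrane metalloproteinase, rose with TSA, from 28 ± 5.63 to 98.2 ± 10.3 (adjusted p = 5.95e-05). Only its TSA mean reached the filter of 50, so it was tested through that group alone. With signals under 50 set to 50 its log2 change with TSA was 0.97, against 1.83.

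The list of inducing cytokines, receptors and transcription factors had 15 of 17 genes on the array and 12 tested. Il1a, Il1b and Tnf, which encode the cytokines best known to induce aggrecanases, stayed under the filter in every group. With LY294002 3 of the 12 rose (Il1r1, Osmr and Epas1) and 1 fell (Il1rn), and with UO126 0 rose and 3 fell (Il1r1, Il1rn and Osmr). With SB202190 1 rose (Epas1) and 2 fell (Il1r1 and Il1rn), and with TSA 3 rose (Epas1, Nfkbia and Foxo1) and 4 fell (Il1rn, Il1r1, Tnfrsf1a and Runx1). Of all genes 5.63% rose and 3.84% fell with LY294002, 1.88% and 1.57% with UO126, and 2.01% and 1.51% with SB202190. Over all genes 30.6% rose and 28.4% fell with TSA. Il1rn, the interleukin-1 receptor antagonist, fell 1.84-fold with LY294002 (adjusted p = 0.00189), 3.54-fold with UO126 (adjusted p = 5.11e-06) and 2.8-fold with TSA (adjusted p = 2.87e-07). Il1r1, the signalling receptor for interleukin-1, fell 1.57-fold with UO126 (adjusted p = 0.000849) and 2.07-fold with TSA (adjusted p = 1.52e-07). Epas1, the hypoxia-inducible factor 2 alpha, rose 1.61-fold with SB202190 (adjusted p = 0.000885) and 1.35-fold with TSA (adjusted p = 0.000884). The calls of Il1rn and Il1r1 with SB202190 held in 9 and 14 of 24 alternatives (adjusted p from 0.0131 to 0.169 and from 0.00578 to 0.167), and each ended without any 1 of the 6 SB202190 and DMSO arrays, that of Il1rn also without LY294002 replicate 3, UO126 replicate 2 or 3 or TSA replicate 1. Those of Il1r1 and Epas1 with LY294002 held in 20 and 18 (adjusted p from 0.00387 to 0.0832 and from 0.0155 to 0.0955), and ended without DMSO replicate 3 or LY294002 replicate 1 or 2 for Il1r1, and without DMSO replicate 2 or 3 or LY294002 replicate 1 or 3 for Epas1. That of Osmr with LY294002 ended without DMSO replicate 2 (adjusted p from 0.00132 to 0.0509), and that with UO126 ended with median centring and with the compared groups alone (0.000789 to 0.127). Median centring also ended the SB202190 calls of Il1rn and Il1r1 and the LY294002 call of Epas1. With TSA that of Nfkbia ended without DMSO replicate 1 or TSA replicate 1 or 2 (0.00348 to 0.0763), and that of Runx1 without DMSO replicate 2 or TSA replicate 2 or 3 (0.00746 to 0.0950).

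**Figure D4:**
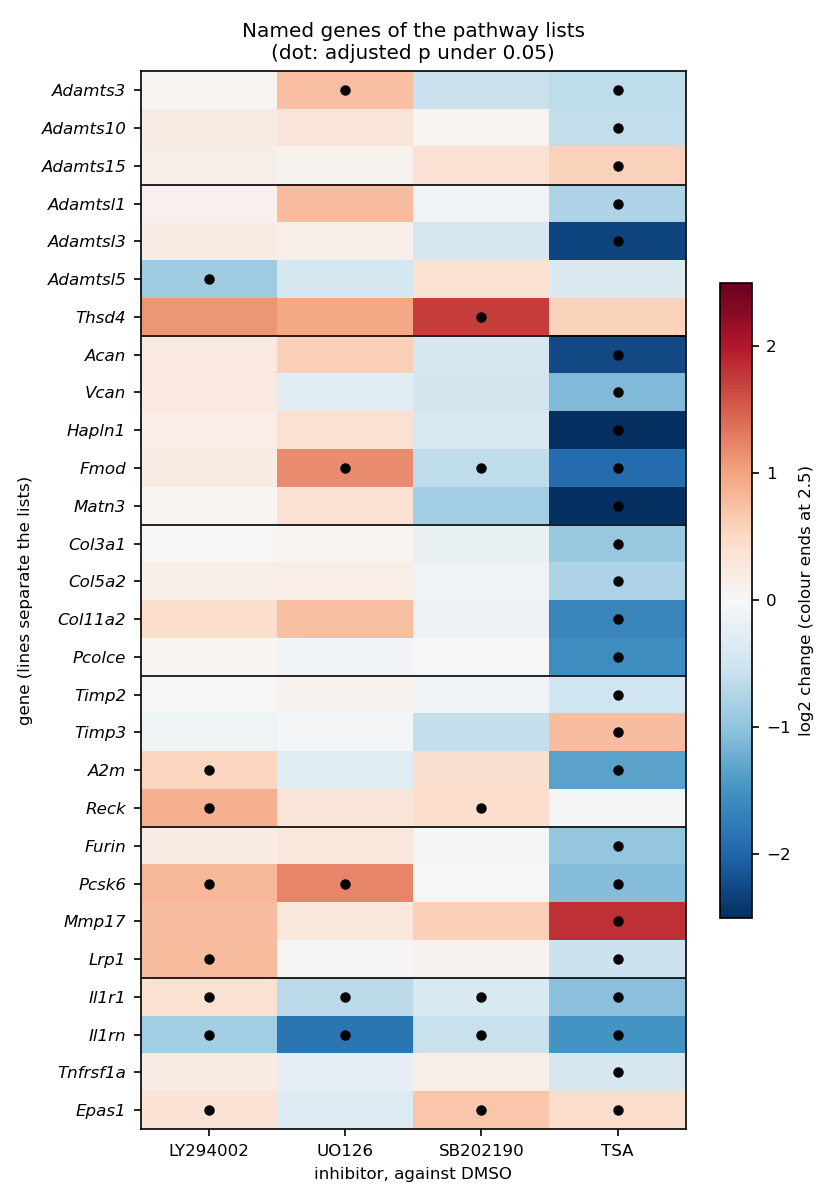
Log2 change against DMSO (colour, ending at 2.5 in each direction) of the named genes of the lists in rows and the 4 inhibitors in columns, with dots for an adjusted p under 0.05. Most rows were picked for a low p in these same data, so the colours do not describe the whole lists. Among these rows blue prevails in the TSA column, with Acan at -2.26 and Matn3 at -3.86, while Timp3 (0.77) and Mmp17 (1.83) are red there.

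The genes whose 4 log2 changes against DMSO were closest to those of each member were found among 7203 genes by the root mean square difference. For Adamts9 the nearest was Reck, at 0.39, with log2 changes of 0.88, 0.29, 0.45 and -0.06 for LY294002, UO126, SB202190 and TSA, followed by Fam43a (0.40) and Npr3 (0.41). Adamts1 lay closest to Serpinf1 (0.043), Prxl2b (0.048) and Ech1 (0.048), and Adamts5 to N4bp2 (0.043), Rbp4 (0.089) and Igdcc4 (0.13). Adamts4 lay closest to Cspg4 (0.097), Srm (0.12) and Kcnk6 (0.14). Adamts12 lay closest to Wdr82 (0.099), Col9a3 (0.13) and Tpst1 (0.18), and Col9a3, a cartilage collagen chain, had log2 changes of 0.37, 0.69, -0.20 and -0.77. These distances rest on 4 changes that share the DMSO arrays and carry no test.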

How the data were processed

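RNA from primary chondrocytes was hybridised to 15 Affymetrix mouse genome arrays, 3 per group. The authors deposited signal intensity values made with MAS 5.0, which combines the probes of a probe set into 1 value and brings arrays to a common scale. The mean with 2% of values trimmed at each end was 150 on every array, and no detection calls were used. Symbols came from the platform annotation (34958 of 45101 probe sets with 1 symbol, 932 with several, 9211 with none listed; 99.4% of the first matched RefSeq, which changed 0). Log2 signals, with 1 as the lowest signal allowed, entered 1 limma fit of the 5 groups (limma 3.58.1, R 4.3.3, variance trend) to the 21765 probe sets whose mean reached 50 in at least 1 group, without 64 controls. Two-sided p-values were adjusted by Benjamini-Hochberg within each of 10 comparisons, with a threshold of 0.05. The fit was tested on simulated data in which all arrays were drawn independently. That simulation therefore could not check the fit for arrays of the same number that deviate together. Folds come from log2 changes unless ratios of means are named, at 1.4, which needed a mean of 50 in 1 of the compared groups. A gene of a list was represented by its probe set with the highest mean log2 signal. Members are given whole. Of each list up to 4 genes, those past the threshold with the lowest p, and also Acan, Vcan, Timp3, Adamts7 and Adamts15, could be named, and values are given for part of them. Other list genes named (Adamtsl4, Hapln4, Nid1, Nid2, Comp, Ncan, Fbln1, Pcsk5, Osmr, Nfkbia, Foxo1, Runx1, Col2a1, Col1a1, Col1a2, Il1a, Il1b, Tnf, Dpt, Cnn1, Ptprc, C1qa, Myh11 and Kdr) were chosen after their values were seen. Likeness used genes with a mean of 200 in their highest group and took the 3 nearest. The members and lists were chosen with earlier results of these data known. The series calls the arrays biological replicates. The labels do not say what a number shares, so p-values measure the spread between these arrays. Arrays of the same number deviated together (r over 0.1 for each number) between DMSO and LY294002 (0.42, 0.16 and 0.30), between DMSO and UO126 (0.42, 0.23 and 0.22), between UO126 and LY294002 and between TSA and SB202190. The values given are without a block for the number unless the block is named. The alternatives were quantile normalization, median centring, other filters, low signal handling and variance settings, the compared groups alone, the replicate block and leaving out each array, and for named list genes these were added after the data were seen. Protein sequences of the members were not used here.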

Additional observations from a re-analysis of the deposited data

How the results depend on the processing

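Of the values of members and named genes past the threshold, 1853 recomputed under an alternative kept direction and call and 143 lost the call, with 0 reversed. Of those of members not past it, 495 kept their side, 6 passed and 8 reversed. For UO126 against DMSO the count of member probe sets was 1 with median centring, 1 with no filter, 1 with no variance trend and 1 with the compared groups alone, against 2, and for SB202190 it was 0 with the compared groups alone, against 1. With 1 array left out the counts ran from 2 to 3 (LY294002), 0 to 3 (UO126), 1 to 1 (SB202190) and 6 to 6 (TSA), and 23 to 27 between inhibitors. For UO126 it was 0 without DMSO replicate 3 or UO126 replicate 2, and 1 without DMSO replicate 1, DMSO replicate 2, UO126 replicate 1 or UO126 replicate 3. The 1.4-fold counts ran from 2 to 3, 2 to 3, 1 to 3 and 6 to 7. The reversed log2 changes were Adamts1 with LY294002 (0.034, median centring), Adamts1 for UO126 minus SB202190 (-0.00128 without UO126 replicate 1, -0.016 without SB202190 replicate 3, up to 0.21 without 1 array), Adamts4 with UO126 (-0.0020 without UO126 replicate 2, up to 0.32 without 1 array), Adamts5 with UO126 (-0.21) and SB202190 (-0.013) at probe set 1450658_at, and Adamts9 with TSA (0.053 without DMSO replicate 2, down to -0.30 without 1 array, and 0.26 at probe set 1431399_at). With signals under 50 set to 50 the TSA log2 changes of Adamts15 (0.37), Adamtsl1 (-0.45), A2m (-0.73), Mmp17 (0.97) and Hapln4 (0.50) moved by over 1.5 times and still passed. Median centring moved the median of all probe sets to 0.12 for LY294002 against DMSO, 0.11 against UO126 and 0.10 against TSA. With the replicate block the counts were 3, 2, 1 and 6 against DMSO and 27 between inhibitors, where Adamts9 for LY294002 minus SB202190 passed (adjusted p = 0.047). The block changed no other call of a member's brightest probe set. For 15 of 15 arrays the closest arrays of other groups bore the same number. Probe sets near a signal of 50 or below allow only imprecise changes. The cause was not tested in any of these cases.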
